A study of Mus musculus with 2 samples.

Results

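Cluster 9 is a group of epithelial cells of the esophagus examined here as candidate cornified keratinocytes, the outermost and most mature cells of the stratified squamous epithelium. Its members are the cells to which the deposited annotation gives cluster number 9, with Epithelial cell as their type and no finer name. They numbered 254 of 4853 cells, with 114 from the control and 140 from the Keap1 cKO library. The tissue was mouse esophagus without its muscle layer, dispersed into single cells and sequenced with the 10x Genomics 3′ method, which tags each captured RNA molecule with a unique molecular identifier (UMI). Both genotypes were hybrids of C57BL/6J and BALB/c and carried the floxed Keap1 allele on both chromosomes (Keap1 floxB/floxB). The Keap1 cKO library carried in addition K5CreERT2, a Cre recombinase that acts once an estrogen receptor ligand is given and that is driven by the keratin 5 promoter, active in basal keratinocytes. The sources used here give neither the age nor the number of the mice, nor the time after induction. With 1 library per genotype there was no test of the genotypes, so every value below describes these libraries, and each 95% interval covers counting error only.

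Cornification is the end of keratinocyte differentiation. Cells leaving the suprabasal layers lose mitochondria and other organelles and crosslink late envelope (LCE), small proline-rich (SPRR) and loricrin proteins into a tough shell under the membrane. KEAP1 binds the transcription factor NRF2 (gene Nfe2l2) and marks it for degradation, and without KEAP1, NRF2 drives genes of glutathione and thioredoxin metabolism, of detoxification and of iron handling. In the skin and esophagus NRF2 is also known to act on genes of the cornified envelope.

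The working name, cornified keratinocytes, came with 6 markers, Lce3c, Lce3a, Sprr2d, Slpi, Serpinb12 and Lor. The clusters were made from these genes, so marker levels and leading genes describe cluster 9 and are no separate check of the name. The 10 genes with the largest fold over all other cells of the series were Lce1a2, Lce3d, Lce3c, Lce1f, Lce3a, Defb4, Lce3b, Lce3e, Il1f5 and Lce3f, of which 8 belong to the envelope list and none to a list of another cell type. These summed levels came from few cells. Of the Lce3 UMIs (Lce3a to Lce3f), 99.9% in the control library lay in 2 cells with at least 5 such UMIs, and 99.8% in the Keap1 cKO library lay in 9 such cells. A single cell held 84.8% and 55.4% of them. Only 3 of 114 control cells (2.63%, 0.546 to 7.50) and 21 of 140 Keap1 cKO cells (15.0%, 9.53 to 22.01) had any Lce3 UMI, by the exact Clopper-Pearson interval that is used for every share of cells here. None of the 6 markers was seen in 58 control cells (50.9%) and 16 Keap1 cKO cells (11.4%), at median depths of 1015.5 and 1113 UMIs. The working name thus rests on the sums and on a small set of cells, and the members are called cluster 9 below.

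The cells rich in Lce3 differed from the other members in more than Lce3. Mt4, a metallothionein of stratified epithelia, stood at 23127 UMIs per 1000000 (CPM) in the 112 other control cells and at 119 CPM, 2 UMIs, in the 2 cells rich in Lce3. In the Keap1 cKO library Mt4 was at 15006 CPM in the other 131 cells and at 67.7 CPM, 8 UMIs, in the 9 cells. Lor, which encodes loricrin, ran the other way, at 24676 against 403 CPM in control and 4384 against 308 CPM in Keap1 cKO cells. Asprv1, a protease of the late epidermis that processes filaggrin, was at 15698 against 342 CPM in control and at 3723 against 22.2 CPM in Keap1 cKO cells. Thus the 11 of 254 members rich in Lce3 had almost no Mt4 and, in their sums, more Lor and Asprv1. Their high Lce3 is set by the split, and Lor and Asprv1 were not described cell by cell. The plot of Lce3 against Mt4 shows those 2 measures cell by cell. The split was chosen after these values were seen.

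**Figure D1:**
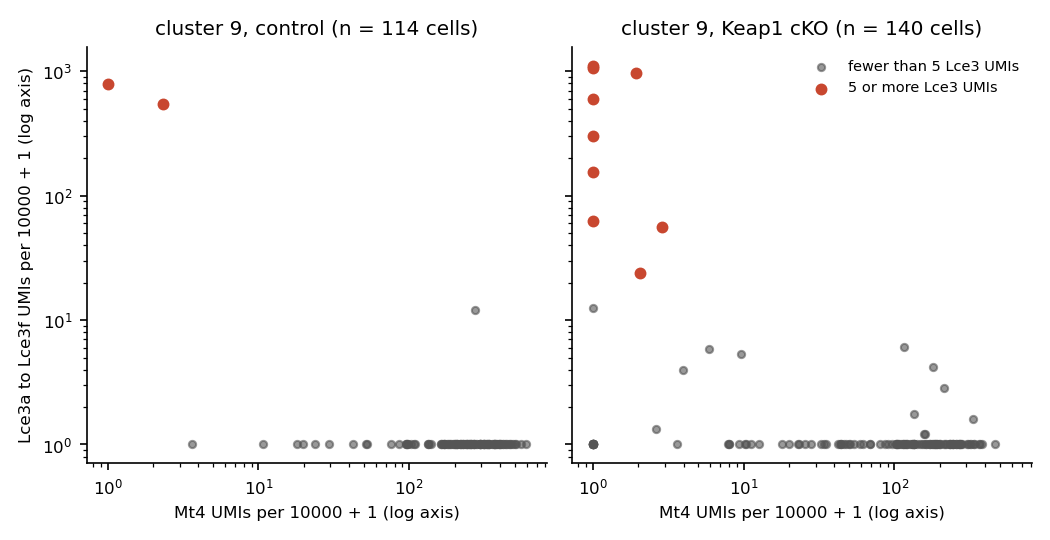
Each point is 1 cell of cluster 9, with Mt4 UMIs per 10000 UMIs of the cell (x, log axis, 1 added) against the summed UMIs of Lce3a to Lce3f per 10000 (y, log axis, 1 added), control on the left and Keap1 cKO on the right. Red points are the 2 control and 9 Keap1 cKO cells with at least 5 Lce3 UMIs, all at the low end of Mt4, while most other cells show Mt4 and no Lce3.

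Cluster 9 was shallow and uneven in depth. Control cells had a median of 1441.5 UMIs and 635 genes and Keap1 cKO cells 2456.5 UMIs and 867 genes, against library medians of 11293.5 and 8193 UMIs and cluster 13 medians of 28122 and 43123 UMIs. The sums held 443500 control and 975821 Keap1 cKO UMIs. The 5 deepest cells contributed 42.8% of the control sum and 23.2% of the Keap1 cKO sum, and 1 control cell alone had 89798 UMIs. One cell barcode occurred in cluster 9 of both libraries, and 2 cluster 9 barcodes occurred in any cell of the other library. Genes with at least 20 UMIs over the groups compared are described, and a gene is counted as higher or lower at 2-fold or more.

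Against cluster 13, also annotated only as Epithelial cell and used here as the suprabasal comparison, cluster 9 showed envelope genes at much higher levels and mitochondrially encoded and nuclear RNA at much lower levels, in both libraries. Since the clusters were made from these genes, this is a description of what separates them. Of 7987 genes, 141 (1.77%) were at least 2-fold higher in cluster 9 in both libraries and 1510 (18.9%) at least 2-fold lower. All 7 described envelope genes and 8 of 9 described SPRR genes were among the higher. The median log2 ratio of the envelope list was 8.999 in control and 8.82 in Keap1 cKO cells. Lce3a had log2 ratios of 10.32 and 11.51, Lor of 6.98 and 6.22, Cnfn (cornifelin, an envelope protein) of 5.75 and 7.98, Sprr3 of 7.65 and 7.56, and Defb4 (a beta-defensin) of 9.99 and 7.50. The 2 control cells rich in Lce3 held 404 UMIs of Lce3a, 415 of Lor and 273 of Defb4. The other 112 control cells held 1, 172 and 50. In Keap1 cKO the 9 cells rich in Lce3 held 1172, 518 and 191, and the other 131 held 5, 264 and 175. The comparison with cluster 13 was not repeated without these cells. All 13 mitochondrially encoded genes were lower, with medians of −2.11 and −3.63. Mitochondrial UMIs made up a median of 0.281% of a control cell and 0.262% of a Keap1 cKO cell in cluster 9, but 3.603% and 3.35% in cluster 13. Malat1, a nuclear noncoding RNA, was at 1312 and 532 CPM against 6749 and 4393 CPM in cluster 13. The lowest ratios by rank included the matrix receptors of basal cells Itga6 (−3.00 and −6.78), Itgb1 (−2.86 and −3.82) and Col17a1 (−2.79 and −4.30), which had 1 to 10 UMIs per library in cluster 9.

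**Figure D2:**
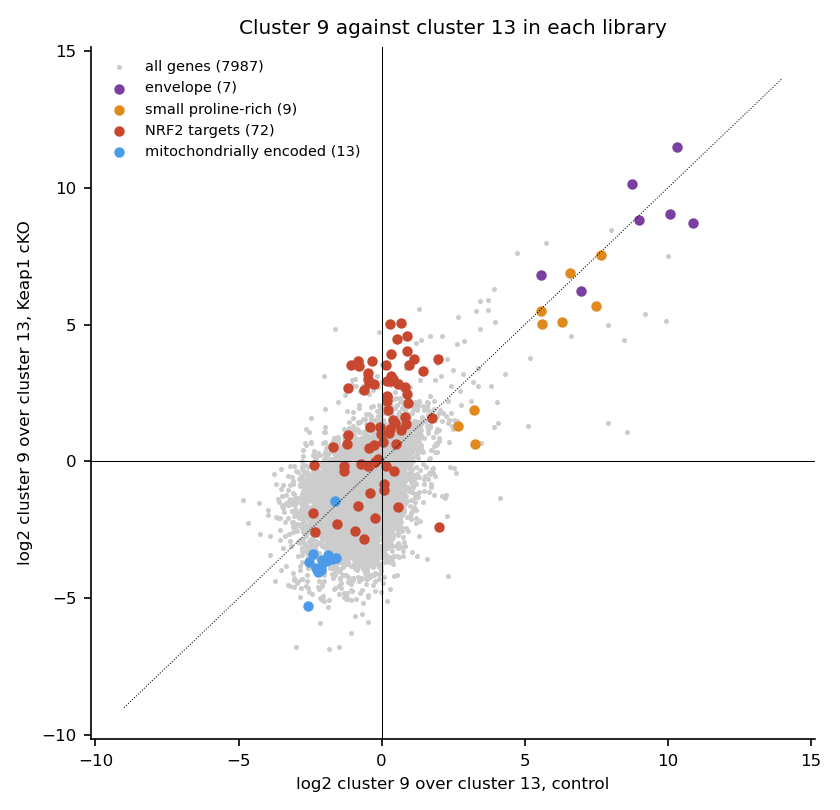
Each point is a gene, with the log2 ratio of cluster 9 over cluster 13 in the control library (x) and in the Keap1 cKO library (y), and coloured points are members of 4 gene lists. Envelope and small proline-rich genes lie far out on the dotted line of equal ratios, mitochondrially encoded genes lie below 0 in both libraries, and NRF2 targets scatter around 0 in control but reach above 4 in Keap1 cKO cells.

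The NRF2 targets did not separate the clusters in the control library, where their median log2 ratio of cluster 9 over 13 was 0.12, but did in the Keap1 cKO library, where it was 1.46. Early differentiation genes of the suprabasal layers went the opposite way, with 1.28 in control and 0.33 in Keap1 cKO cells. Krt4, one of the paired keratins of the esophageal suprabasal layers, was higher in cluster 9 than in cluster 13 in control (log2 1.28) and lower in Keap1 cKO cells (−1.17). Its partner Krt13 followed, with 0.71 and −0.62.

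The comparison of the genotypes within cluster 9 asks how cells of this stage differ after deletion of Keap1. In the sums, stress keratins, alarmins, SPRR genes and NRF2 targets were higher in the Keap1 cKO cells. The keratin pair of the normal esophagus and genes of early differentiation, adhesion and mitochondria were lower. For mitochondrial genes this held for the sums, while the medians per cell, 0.281% and 0.262%, were close. Of 4713 genes, 578 (12.3%) were at least 2-fold higher and 850 (18%) at least 2-fold lower, and the median log2 ratio over all of them was −0.15. With median-of-ratios scaling, which moved that median to 0.12, 783 were higher and 592 lower. The narrow counting intervals do not cover how the cells are weighed. Of 175 genes named by rule, 82 moved by over 1.5-fold when each cell counted equally. At least 52 did when cells were thinned to 600 UMIs, 57 without the 5% deepest cells and 80 without cells holding 3 or more markers of another type. Under these last 3 alternatives, genes left without a value count as not moved. Opposite signs occurred for 26 of the 175, of which 14 were under 2-fold apart in the sums. The other 12 included Lce3f, Malat1 and Serpinb3a, and some genes with few UMIs, such as Itgb1 and Gm43305.

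Keap1 itself had 20 UMIs in 114 control cells and 10 in 140 Keap1 cKO cells, 45.1 against 10.2 CPM (log2 −2.14, −3.40 to −0.98). The sources used here do not name the deleted exons, so reads from the 3′ end may lie outside them and this does not check the deletion. Nfe2l2 was at 221 and 194 CPM (log2 −0.19, −0.55 to 0.18), and at up to 0.35 under the alternatives.

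Of 66 described NRF2 targets, 39 were at least 2-fold higher and 6 lower, with a median log2 ratio of 1.30, and their summed share of all UMIs was 2.50% in control and 9.46% in Keap1 cKO cells. Glutathione synthesis held 6 higher genes of 7. Gclc, the catalytic subunit of glutamate-cysteine ligase, had 11 control and 1280 Keap1 cKO UMIs, 24.8 against 1312 CPM (log2 5.72, 4.88 to 6.73). Its modifier subunit Gclm was at 90.2 against 1435 CPM (3.99, 3.54 to 4.48). Gsr, which reduces oxidized glutathione, was at 6.76 against 307 CPM, from 3 and 300 UMIs (5.51, 3.95 to 7.79). Slc7a11, the cystine importer, had 4 and 62 UMIs (2.82, 1.39 to 4.74). For 3 of these 4 genes there were under 20 control UMIs, so the size of their ratios rests on few molecules, as the intervals show.

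The thioredoxin group held 5 higher genes of 7 and 1 lower. Srxn1, which repairs peroxiredoxins, was at 18.0 against 936 CPM (log2 5.70, 4.71 to 6.91). Prdx1, an abundant peroxiredoxin that removes hydrogen peroxide, was at 936 against 12913 CPM (3.79, 3.65 to 3.93). Txnrd1, thioredoxin reductase, was at 13.5 against 131 CPM (3.28, 2.12 to 4.75).

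Detoxification genes were higher in 11 cases of 17 and lower in 2. Nqo1, a quinone reductase, was at 69.9 against 680 CPM (log2 3.28, 2.76 to 3.85). Akr1c18, an aldo-keto reductase, was not seen in the control cells and had 1266 UMIs in 50 Keap1 cKO cells, at least 192-fold higher at a floor of 3 counts over the control cells. Adh7, an alcohol dehydrogenase of the upper digestive tract, was at 1375 against 5485 CPM (1.996, 1.87 to 2.12). Aldh3a1, an aldehyde dehydrogenase, was an exception at 2081 against 1809 CPM (−0.20, −0.32 to −0.09), with the sign turned, to 0.067, by median-of-ratios scaling. Of 15 glutathione S-transferases, which join glutathione to reactive compounds, 6 were higher and 1 lower. Gstm1 was the most abundant of them in Keap1 cKO cells, at 1030 against 15031 CPM (3.87, 3.73 to 4.004), whereas Gsta4 differed little at 4469 against 6222 CPM (0.48, 0.40 to 0.55). These genes have close paralogs, between which short reads can be split or lost. Iron and heme genes were higher in 5 cases of 6, among them Blvrb, biliverdin reductase B, at 180 against 1699 CPM (3.24, 2.91 to 3.58). The NADPH group had a median of 0.31, with 2 higher and 1 lower of 6, and Tkt, a transketolase of the pentose phosphate pathway, was lower at 372 against 142 CPM (−1.39, −1.72 to −1.05).

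The stretches upstream of 2 of these genes, which encode a peroxiredoxin and the enzyme that repairs it, are shown with the matches to the core of the antioxidant response element that NRF2 binds (TGACNNNGC) and to the AP-1 motif (TGANTCA), on either strand, in capitals. Each runs 5′ to 3′ from 250 bases before the RefSeq start site to the last base before the first annotated start in RefSeq or GENCODE, on build GRCm38.p6. Prdx1 is read from chr4:116685349-116685543 and Srxn1 from chr2:152105274-152105515, both on the plus strand.
Prdx1: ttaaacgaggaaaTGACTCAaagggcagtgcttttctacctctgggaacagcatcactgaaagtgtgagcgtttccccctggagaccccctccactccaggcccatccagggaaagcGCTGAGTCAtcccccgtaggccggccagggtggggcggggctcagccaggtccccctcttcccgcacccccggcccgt
Srxn1: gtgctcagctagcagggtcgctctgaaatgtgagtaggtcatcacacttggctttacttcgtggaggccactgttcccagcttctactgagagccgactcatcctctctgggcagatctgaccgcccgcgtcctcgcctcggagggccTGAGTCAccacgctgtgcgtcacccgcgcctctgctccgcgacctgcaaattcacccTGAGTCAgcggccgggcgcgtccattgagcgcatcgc
In Prdx1 the antioxidant response core and an AP-1 match overlap at 133 and 131 bases before the start site, and a further AP-1 match lies 237 bases before it. In Srxn1 the AP-1 matches lie 102 and 45 bases before the start site, and the 1 match of its whole window to the antioxidant response core lies outside the stretch shown. Of all 32851 RefSeq promoter windows of 300 bases, 12.4% hold TGACNNNGC and 7.81% hold TGANTCA. Of 46 genes of this report looked up, 34 had a window, and 11 of these held the first and 14 the second motif somewhere in the 300 bases. Among the NRF2 targets with a window, Gclm, Gsta3, Prdx1, Srxn1 and Txnrd1 held the antioxidant response core. Nqo1, Gstm1, Slc7a11, Akr1c18, Akr1b8, Blvrb and Adh7 did not. A match is a run of letters, and binding was not measured.

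Cell by cell, the NRF2 targets split the Keap1 cKO members into 2 sets with almost no cell between them. In each control cell the targets took 0.912 to 4.58% of the UMIs, with a median of 2.33%. In Keap1 cKO cells the median was 6.41%, but 66 cells lay under 3%, 2 between 3 and 4%, 1 between 4 and 6% and 71 at 6% or more, where no control cell lay. With the control 95th percentile of 3.76% as the threshold, 72 of 140 Keap1 cKO cells (51.4%, 42.8 to 60.0) formed an upper range and 68 a lower range, and 6 control cells lay above. Within 20% of the threshold there were 27 control and 2 Keap1 cKO cells. In cluster 13, 3 of 61 Keap1 cKO cells and no control cell were above it. The upper range had a median of 12.2% and a lowest cell of 5.04%, and the lower range a median of 1.60% and a highest cell of 3.33%.

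**Figure D3:**
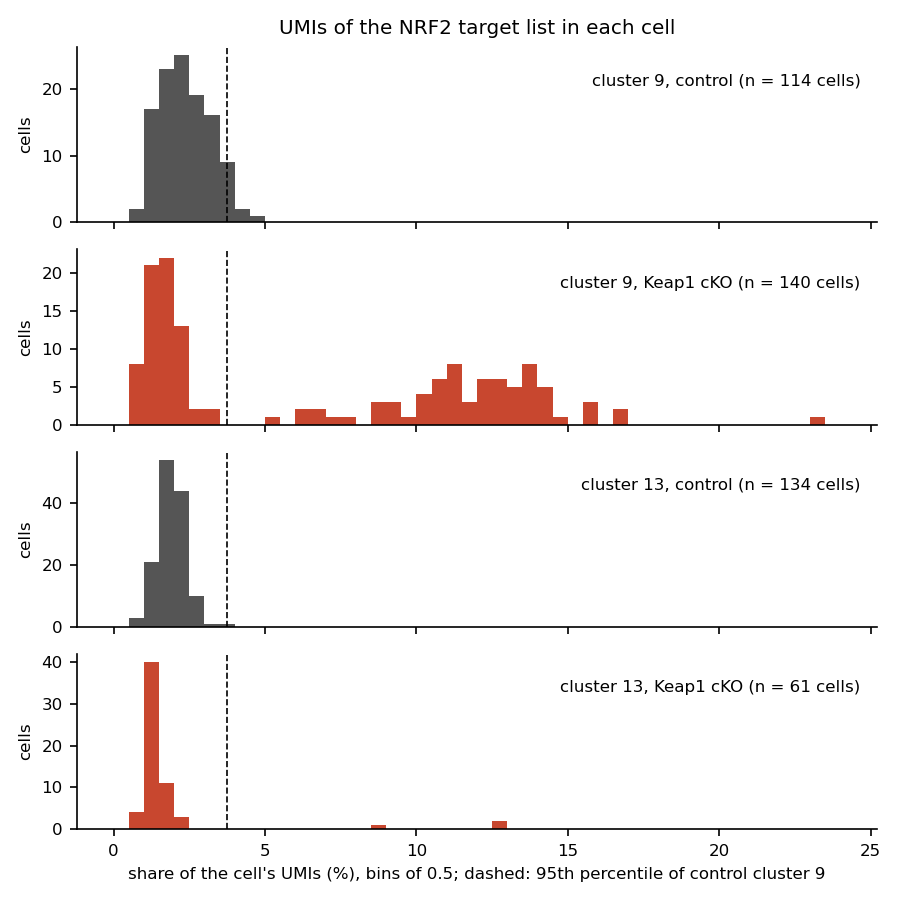
Histograms of the percentage of a cell's UMIs that belong to the NRF2 target list (x) by number of cells (y), for cluster 9 and cluster 13 in each library, with the threshold of 3.76% dashed. Keap1 cKO cells of cluster 9 form 2 separate humps, 68 cells below and 72 above the threshold, while the control cells and all but 3 Keap1 cKO cells of cluster 13 form 1 low hump.

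The lower range did not carry the higher levels of NRF2 targets. Its median log2 ratio over control was −0.68 for the whole target list, against 1.53 in the upper range, a difference that the choice by this share fixes. Gclc was at 12.8 CPM in the lower range, 24.8 in control and 1721 in the upper range, Prdx1 at 1023, 936 and 16658 CPM, and Gstm1 at 274, 1030 and 19679 CPM. The upper range supplied 76.0% of the Keap1 cKO UMIs of cluster 9. Median depths were 3310 and 1969.5 UMIs, and whether depth has a part in the split was not tested; with cells thinned to 600 UMIs, 51.5% of the Keap1 cKO cells were above the control 95th percentile.

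Genes outside the target list differed between the ranges too. Across the 140 Keap1 cKO cells and 1290 genes seen in at least 25% of them, Mt3, a metallothionein best known from neurons, had the highest Spearman correlation with the NRF2 share (rho 0.85). The cells share 1 library and differ in depth, so this is a description only. Mt3 stood at 24.8 CPM in control, 25.7 in the lower range and 9185 in the upper range. Cyb5a (cytochrome b5; rho 0.77) was at 356, 312 and 1643 CPM, and Sqor, which oxidizes hydrogen sulfide (rho 0.58), at 54.1, 51.3 and 546 CPM. Tubb3, a beta-tubulin (rho 0.56), had 2 control UMIs, none in the lower range and 202 in the upper range. For these 4 genes the lower range was near control and the upper range far above both.

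The lowest correlations belonged to Krt4 (rho −0.67), S100a9 (−0.61), Serpinb3a (−0.53), Krt6a (−0.46), Sprr1b (−0.46) and S100a8 (−0.45). Krt4 was at 28451 CPM in control, 10016 in the lower range and 323 in the upper range, a stepwise order. S100a9 was at 347, 38546 and 10499 CPM, and S100a8 at 361, 36770 and 16188 CPM. Krt6a was at 106, 10444 and 2773 CPM. Both ranges thus lay far above control for the alarmins and Krt6a, and the lower range lay highest. The median NRF2 share of the lower range was 1.60%, under the 2.33% of control. Of 3548 genes described between the ranges, 483 (13.6%) were at least 2-fold higher in the upper range and 328 (9.24%) lower.

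**Figure D4:**
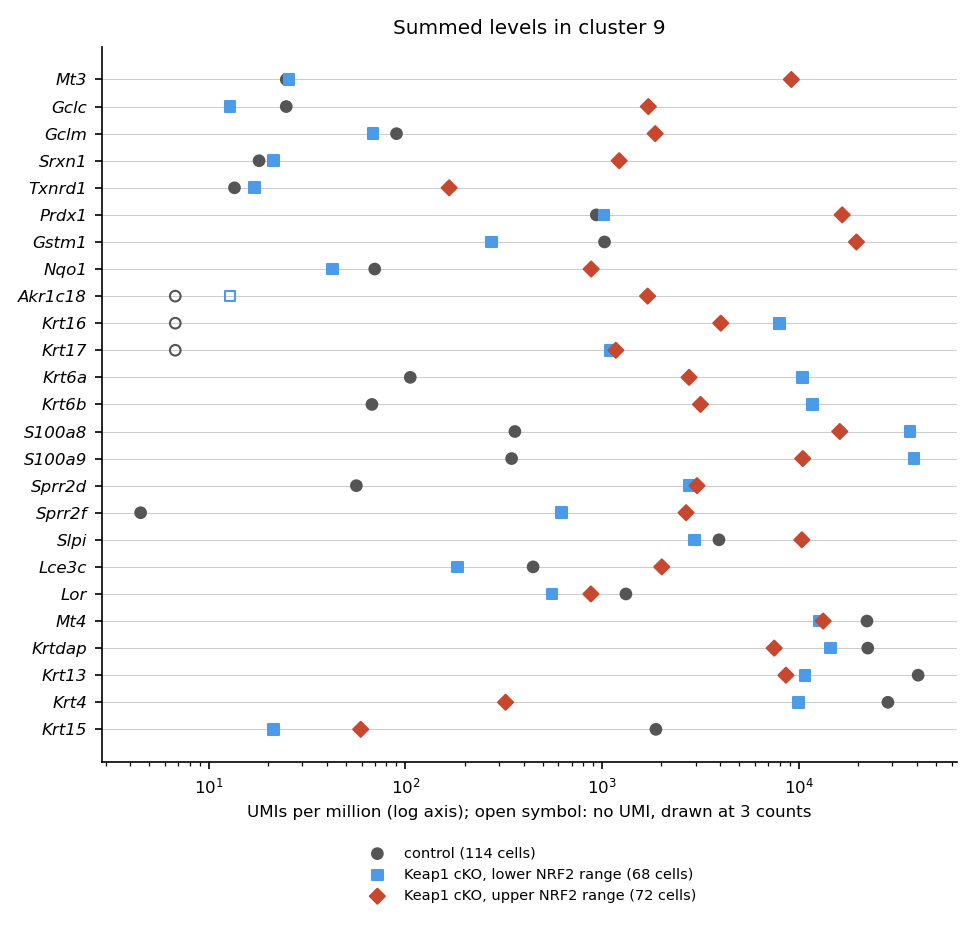
Summed levels in CPM (x, log axis) of 25 genes (y) in control cells (circles), Keap1 cKO cells of the lower NRF2 range (squares) and of the upper range (diamonds), with open symbols for groups without a UMI, drawn at 3 counts. The NRF2 targets and Mt3 stand apart in the upper range alone, the stress keratins and S100 genes stand above control in both ranges, and Krt4, Krt13 and Krt15 stand below control in both.

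Stress keratins, which keratinocytes switch on in wounds and inflammation, were all higher in the Keap1 cKO cells of cluster 9, in 4 cases of 4, with a median log2 ratio of 6.84 that takes Krt16 and Krt17, unseen in control, at their floor bounds. Krt16 was not seen in the 114 control cells, where 3 cells in place of 0 would be a share of 2.63% and the exact upper limit is 3.18%, and had 4857 UMIs in 111 of 140 Keap1 cKO cells (79.3%, 71.6 to 85.7), at least 736-fold higher. In Keap1 cKO cells thinned to 600 UMIs Krt16 was seen in 63.4% of cluster 9 and 0.833% of red blood cells, against 20.8% of red blood cells before thinning. Red blood cells of that library had a median of 10271.5 UMIs, and a median of 623.5 that were not erythroid. Thinning thus takes out most of their other RNA by construction, and their thinned shares do not measure it. Krt17 was also at 0 UMIs in control and had 1130 in Keap1 cKO cells, at least 171-fold higher. Krt6a was at 106 against 4610 CPM (5.44, 5.03 to 5.89) and Krt6b at 67.6 against 5218 CPM (6.27, 5.75 to 6.84). These bounds are ratios at the floor, and the exact intervals reach slightly smaller folds. Krt14, the basal partner of Krt5, was higher as well, at 133 against 3859 CPM (4.86, 4.49 to 5.26), though the control level, 0.518 UMIs per cell, did not exceed the 0.949 of red blood cells in that library.

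Among alarmins and antimicrobial proteins, 8 of 11 were higher and 1 lower, with a median of 2.77. S100a8, one subunit of calprotectin, had 160 UMIs in 8 control cells, 98.1% of them in 5 cells, and 20607 UMIs in 136 Keap1 cKO cells, 361 against 21118 CPM (5.87, 5.65 to 6.10). The other subunit, S100a9, was at 347 against 17216 CPM (5.63, 5.403 to 5.87). Thinned to 600 UMIs a cell, S100a8 was seen in 7 of 96 cells of the control (7.29%) and in 117 of 134 cells of the Keap1 cKO library (87.3%). In red blood cells of the Keap1 cKO library, which should lack it, S100a8 was seen in 60.8% of cells before thinning and 8.33% after, a fall that thinning brings by construction. Defb4 was at 728 against 375 CPM (−0.96, −1.18 to −0.74), but its direction turned with the cells counted. Of its 323 control UMIs, 273 lay in the 2 cells rich in Lce3, and outside the cells rich in Lce3 it was at 117 against 204 CPM (0.80). It was at 0.73 as a mean over cells, 0.93 thinned and 1.53 without cells holding markers of another type, so no direction is given for it. Of the IL-1 family, whose members signal alarm in epithelia, 7 of 9 were higher and none lower, among them Il1f6 (IL-36 alpha) at 174 against 919 CPM (2.40, 2.07 to 2.76) and Il1f9 (IL-36 gamma) at 29.3 against 364 CPM (3.63, 2.84 to 4.56). All 77 control UMIs of Il1f6 lay in 4 cells.

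SPRR genes encode envelope precursors that transglutaminases crosslink. Of 13 described, 9 were at least 2-fold higher and none lower, with a median of 2.78. Sprr2d was at 56.4 against 2978 CPM (5.72, 5.16 to 6.35), and 24 of its 25 control UMIs lay outside the 2 cells rich in Lce3. Sprr2f had 2 control and 2133 Keap1 cKO UMIs (8.92, 7.07 to 11.97), and Sprr2e 0 and 988, at least 150-fold higher. Sprr1a, already present in control, was at 708 against 1663 CPM (1.23, 1.06 to 1.41), and Sprr3 was at 431 against 466 CPM (0.11, −0.13 to 0.37), with −0.11 to 1.95 under the alternatives. The median over control was 4.15 in the lower and 2.53 in the upper NRF2 range, so SPRR genes were higher in both. Sprr2 genes are near copies of each other and reads can be assigned to the wrong one.

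Upstream stretches of 2 Sprr2 genes that were higher together, and of Lor, which was not, are shown in the same way, all from chromosome 3, where the envelope genes lie side by side. Sprr2d is read from chr3:92338890-92339139 and Sprr2f from chr3:92364937-92365186 on the plus strand, and Lor from chr3:92083143-92083392 on the minus strand.
Sprr2d: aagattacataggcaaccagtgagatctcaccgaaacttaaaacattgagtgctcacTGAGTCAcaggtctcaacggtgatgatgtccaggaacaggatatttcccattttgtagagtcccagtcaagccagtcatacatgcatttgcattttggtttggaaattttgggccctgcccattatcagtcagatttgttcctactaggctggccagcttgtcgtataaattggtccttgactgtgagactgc
Sprr2f: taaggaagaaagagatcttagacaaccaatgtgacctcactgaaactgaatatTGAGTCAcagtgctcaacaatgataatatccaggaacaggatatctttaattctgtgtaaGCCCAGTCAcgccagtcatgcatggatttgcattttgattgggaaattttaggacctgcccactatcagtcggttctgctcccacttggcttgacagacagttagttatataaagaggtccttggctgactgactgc
Lor: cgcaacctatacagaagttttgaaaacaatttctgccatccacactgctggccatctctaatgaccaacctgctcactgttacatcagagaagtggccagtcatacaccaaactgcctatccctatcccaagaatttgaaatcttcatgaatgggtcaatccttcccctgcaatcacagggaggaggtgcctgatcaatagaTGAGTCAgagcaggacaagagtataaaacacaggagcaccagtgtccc
The AP-1 match lies 193 bases before the start site in Sprr2d, 197 in Sprr2f and 48 in Lor, and Sprr2f also holds the antioxidant response core 137 bases before its start. All 7 SPRR genes looked up, Sprr1a, Sprr1b, Sprr2b, Sprr2d, Sprr2e, Sprr2f and Sprr2h, hold an AP-1 match in the window, against 7.81% of all windows. As near copies that lie side by side, the Sprr2 genes are not separate cases, and enrichment was not tested.

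The envelope list had a median log2 ratio of 3.11, with 18 of 21 genes at least 2-fold higher and none lower, and 13 of the 21, unseen in control, taken at their floor bounds. Without the 11 cells rich in Lce3, an alternative added after seeing the data, 2 of the 21 genes still reached 20 UMIs, so no median could be given. Without the 5% deepest cells of each library, which include 1 of those 11 cells, the median was 0.23. Lce3d had no control UMI and 647 Keap1 cKO UMIs in 5 cells, Lce3c was at 446 against 1576 CPM (1.82, 1.61 to 2.04) and Lce3a at 913 against 1206 CPM (0.40, 0.24 to 0.57). The sign of Lce3a turned, with −1.11 without the deepest cells, −0.14 thinned and 5.34 without cells holding markers of another type. Lor was lower at 1324 against 801 CPM (−0.72, −0.88 to −0.57; −1.96 to −0.15 under the alternatives), and Crct1, a cysteine-rich envelope gene, was at 2045 against 3540 CPM (0.79, 0.69 to 0.90), but at −0.015 without the deepest cells. Slpi, an inhibitor of leukocyte proteases, was at 3935 against 8605 CPM (1.13, 1.05 to 1.20), and 1394 of its 1745 control UMIs lay in the 2 cells rich in Lce3. Outside those cells Slpi was at 823 CPM in control and 8350 CPM in Keap1 cKO cells. Per cell, envelope and SPRR genes together took a median of 0.0631% of control UMIs and 0.262% of Keap1 cKO UMIs, and 0.167% and 0.333% with cells thinned to 600 UMIs. Between the NRF2 ranges the medians per cell were 0.595% in the lower and 0.177% in the upper, the reverse of the summed Lce3c levels of 184 and 2015 CPM, 6 of the 9 cells rich in Lce3 being in the upper range.

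Early differentiation genes were lower in 11 cases of 19 and higher in 3, with a median of −1.57, and per cell they took a median of 9.57% of control and 3.17% of Keap1 cKO UMIs. Krt13 was at 40523 against 9141 CPM (−2.15, −2.19 to −2.11) and Krt4 at 28451 against 2645 CPM (−3.43, −3.49 to −3.37). The ratio of Krt4 was smaller in size under the alternatives that weigh or drop cells, at −2.15 as a mean over cells, −2.23 thinned, −2.79 without the deepest cells and −1.80 without cells holding markers of another type. At 600 UMIs a cell, Krt4 was seen in 89 of 96 cells of the control (92.7%) and in 66 of 134 cells of the Keap1 cKO library (49.3%). The shares of red blood cells at that depth were 6.74% and 4.17%, which thinning lowers by construction, as for Krt16. Before thinning, Krt4 was seen in 98.2% and 74.3% of cluster 9 cells and in 74.7% and 44.2% of red blood cells. Krtdap, a secreted keratinocyte protein, was at 22467 against 9187 CPM (−1.29, −1.33 to −1.25). Fabp5, the epidermal fatty acid binding protein, went the other way at 23035 against 46057 CPM (0.9996, 0.97 to 1.03), although 11 of 23 barrier lipid genes were lower and 2 higher.

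Among the 12 lowest ranked genes were Serpinb3c, a serpin (log2 −6.53, −8.83 to −4.95, from 126 and 3 UMIs), Krt32 (−5.66), Rgcc (−5.44), Krt15, a keratin of basal cells (−5.23), Selenbp1, a selenium binding protein (−5.20), Cyp2f2, a cytochrome P450 (−5.15), and Aqp3, a water and glycerol channel (−4.77). Of the 126 control UMIs of Serpinb3c, 97.6% lay in 5 cells. Krt15 went from 1880 to 50.2 CPM, and its 0.35 UMIs per Keap1 cKO cell equalled the mean of red blood cells in that library, the level of free RNA. Desmosome genes were lower in 9 cases of 13 and higher in 1, led by the desmosomal cadherins Dsc3 (−6.09, −9.17 to −4.18) and Dsg3 (−4.72, −6.22 to −3.53), with 62 against 2 and 72 against 6 UMIs. Of 12 mitochondrially encoded genes, 10 were lower and none higher, with a median of −1.63. This came from few control cells. Of the control UMIs of mt-Co1, 82.8% lay in 5 cells, and the mitochondrial share reached 4.40% in a control cell and 2.10% in a Keap1 cKO cell, while the medians per cell, 0.281% and 0.262%, were close. The ratio of mt-Co1 was −1.91 in the sums, −0.27 without the deepest cells and −0.43 thinned. That of mt-Atp6 was −1.88, −0.44 and −0.18.

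The genotypes differed in another way in cluster 13. There the NRF2 targets had a median log2 ratio of −0.21, with 7 of 77 at least 2-fold higher and 12 lower, against a background of 7.04% higher and 6.32% lower among 9875 genes. Detoxification genes had a median of −0.53 in cluster 13 and 1.996 in cluster 9, iron and heme genes −0.55 and 2.11. The largest differences of the contrasts were those of Mt3 (8.14 in cluster 9 and 1.69 in cluster 13), Nampt, which makes a precursor of NAD (4.70 and −0.42), Gstm1 (3.87 and −0.85), Gsr (5.51 and 0.94), Gclc (5.72 and 1.23) and Srxn1 (5.70 and 1.33). The smallest were those of S100a8 (5.87 and 13.38), S100a9 (5.63 and 12.17), Chil4, a chitinase-like protein (−3.06 and 3.45), Rnase2b (2.58 and 6.52), Slpi (1.13 and 4.94) and Aqp3 (−4.77 and −1.08). In cluster 13 S100a8 was at 0.952 CPM in control, so its larger ratio there goes with a lower start. Stress keratins were higher in both, with medians of 6.84, which rests in part on floor bounds, and 6.71. Of 4605 genes described in both clusters, 12 were at least 2-fold higher in cluster 9 and lower in cluster 13, and 14 the reverse. The clusters were made from these genes, so the level of NRF2 targets in a cell can bear on the cluster it was placed in. Whether it did was not tested, and these differences between clusters carry no test.

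**Figure D5:**
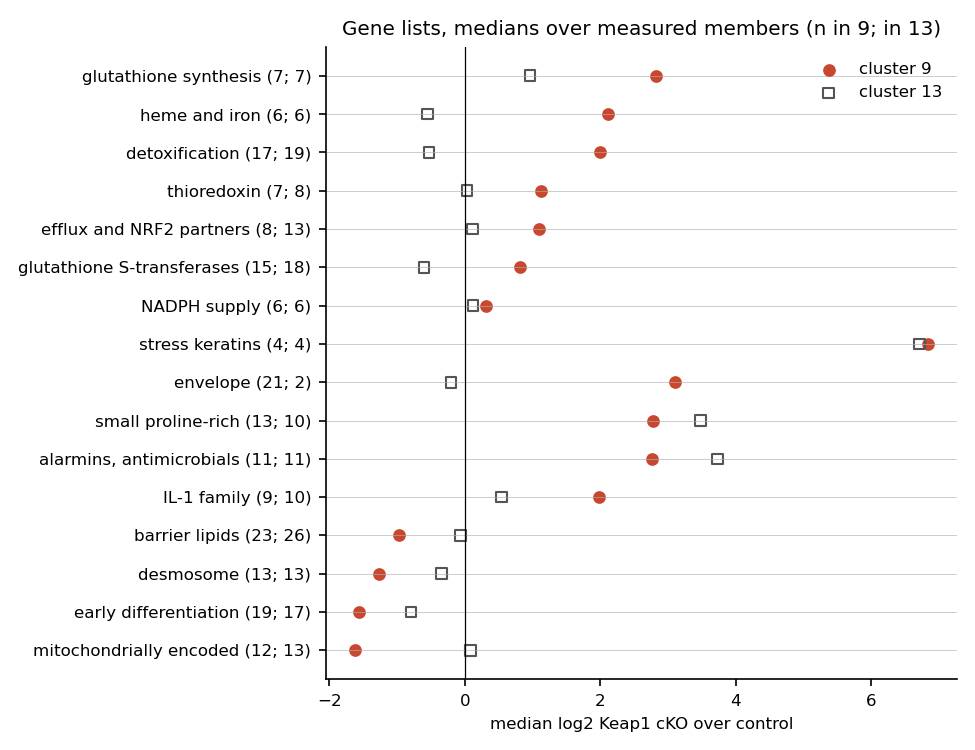
Median log2 ratio of Keap1 cKO over control (x) for 16 gene lists (y) in cluster 9 (filled circles) and cluster 13 (open squares), with the number of members behind each median in parentheses. NRF2 lists other than NADPH supply lie above 0.8 in cluster 9 and under 1 in cluster 13, while stress keratins, small proline-rich genes and alarmins lie far above 0 in both.

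Marker UMIs of other cell types were a small part of the cluster 9 sums, but for several types they lay in many cells. T cell markers turned up in 4 control cells and 70 Keap1 cKO cells, fibroblast markers in 56 and 83. Langerhans and dendritic cell markers turned up in 25 and 64 cells, myeloid markers in 20 and 54, neutrophil markers in 5 and 3. Cells with 3 or more markers of another type held 58.3% of the control and 64.3% of the Keap1 cKO UMIs of cluster 9. T cell markers made up 4 control and 211 Keap1 cKO UMIs, 129 of the latter being Trdc, the constant region of the gamma-delta T cell receptor, which stood at 171 CPM in the upper and 8.56 CPM in the lower NRF2 range. Of the 10 T cell markers, 7 were at 0 in control and none in Keap1 cKO cells. Neutrophil markers had 11 and 3 UMIs, with all 11 in control from Il1r2, 2 in Keap1 cKO cells from Ly6g, and Csf3r and Retnlg at 0 in both libraries. Whether neutrophil RNA has a part in the S100a8 and S100a9 levels was not tested. Myeloid markers had 31 and 122 UMIs, Langerhans and dendritic cell markers 39 and 169, fibroblast markers 154 and 291, and melanocyte and Schwann cell markers none. Erythroid markers had 255 and 3063 UMIs, and 1 Keap1 cKO cell held 45.1% erythroid UMIs. Red blood cells had a median of 598 and 623.5 UMIs that were not erythroid, against medians of 1441.5 and 2456.5 UMIs in all of cluster 9. The part of T cell, myeloid and free RNA in the other results was not tested, beyond the levels given here: Krt13 averaged 158 UMIs per control cell of cluster 9 and 3.21 per red blood cell, S100a8 averaged 147 and 1.02 in the Keap1 cKO library, and Mt3 48.7 and 0.075. The medians in the same order were closer, at 44.5 and 3 for Krt13, 44.5 and 1 for S100a8, and 1 and 0 for Mt3.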

How the data were processed

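Single cells of 1 control and 1 Keap1 cKO mouse esophagus library were measured. The deposited table holds natural log values, in which the values show a total of 10000 per cell and an added 1, both set by the authors. UMIs were recovered from it, 100% of positive values being whole within 0.01, for 18595 genes and 4853 cells; 0 columns were left unused. The submitters' processing notes name mm10, Seurat 4.0.2, R 4.1.1 and Cell Ranger 6.0.1; for the counting annotation and the cell filters the sources used here state nothing. Library, cell type and cluster come from the authors' deposited annotation.

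UMIs were summed per cluster and library and given per 1000000 (CPM). Ratios carry exact conditional binomial intervals and shares Clopper-Pearson intervals, both at 95%. A group at 0 was set to 3 counts. Genes with at least 20 UMIs were described; the code was tested on simulated data. Doublets were not called; alternatives without the deepest cells and without cells holding markers of other types stand in for it. Members and gene lists were chosen with earlier results of these data known.

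Named genes are the 12 highest and 12 lowest ratios with at least 100 UMIs and 50 CPM in 1 library (between libraries, and between clusters), 6 each way of the difference of contrasts and of the correlation, the 2 most abundant and 2 most different members of each list, and 20 fixed genes. Mitochondrial, hemoglobin, ribosomal and sex-linked genes were not ranked. The split by Lce3 UMIs, and Cat and Klk10, were chosen after their values were seen. Gene names were matched to GENCODE vM21 (18323 of 18595). Python 3.11.15, numpy 2.4.6, scipy 1.17.1 and pandas 2.3.3 were used.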

Additional observations from a re-analysis of the deposited data

Results flagged for a closer look

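Several results had opposite signs in cluster 9 and cluster 13 under the same comparison of genotypes. None of these differences was tested, since each cluster has 1 library per genotype and the clusters were made from these genes. Among gene lists, the median log2 ratio of Keap1 cKO over control was 1.996 in cluster 9 and −0.53 in cluster 13 for detoxification genes, 0.82 and −0.60 for glutathione S-transferases, 2.11 and −0.55 for iron and heme genes, −0.56 and 0.71 for cell cycle genes, and 2.57 and −1.15 for erythroid genes. The cell cycle value rests on 5 genes in cluster 9.

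Among single genes with at least 100 UMIs in each cluster, 6 were at least 2-fold higher in cluster 9 and at least 2-fold lower in cluster 13. Adh7 had log2 ratios of 1.996 and −1.49, Nqo1 of 3.28 and −1.01, and Cat, which encodes catalase, of 2.23 and −1.52. The hemoglobin genes Hba-a1, Hba-a2 and Hbb-bs had 2.66, 2.63 and 2.51 in cluster 9, and without the 1 Keap1 cKO cell with 45.1% erythroid UMIs they had −0.06, −0.38 and −0.42. The reverse held for Chil4 (−3.06 and 3.45), Klk10, a kallikrein protease (−1.19 and 2.30), and Serpinb3a (−1.23 and 1.44).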

How the results depend on the processing

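No paired analysis was possible because each genotype has 1 library. Named genes that fell under 20 UMIs under an alternative, from at least 20 in the sums, were given no value there. Those already under 20 UMIs in the sums, Itgb1 among them, kept a value that rests on few UMIs. The lower and upper NRF2 ranges and the removal of the erythroid-rich cell and of the cells rich in Lce3 were chosen after seeing the data.

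Against 578 genes at least 2-fold higher and 850 lower in the Keap1 cKO cells of cluster 9, the counts were 297 and 335 without cells holding 3 or more markers of another type (29 Keap1 cKO and 16 control cells, with 64.3% and 58.3% of the UMIs), 120 and 103 at 600 UMIs a cell, 1105 and 4651 at a minimum of 1 UMI, 173 and 178 at 100 UMIs, and 931 and 1422 at 1.5-fold. Without the 5% deepest cells, 474 were higher and 520 lower, and without the 11 cells rich in Lce3, 485 and 790. Fewer genes or UMIs enter the thinned, reduced and stricter counts by construction.

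The envelope median of 3.11 became 3.38 with median-of-ratios scaling, 2.61 as a mean over cells, 0.23 without the deepest cells, 2.75 without cells holding markers of another type, 1.15 thinned, 2.28 at 100 UMIs and −0.74 in the lower NRF2 range. The early differentiation median of −1.57 became −1.30, −1.02, −1.17, −0.95 and −1.22 under the first 5 of these, −0.59 in the lower range and −1.80 in the upper range. The alarmin median of 2.77 became 4.35 thinned, 4.55 in the lower and 3.72 in the upper range, 1.06 at 1 UMI and 5.10 at 100 UMIs. The SPRR median of 2.78 became 4.15 in the lower range and 3.80 at 100 UMIs, and that of stress keratins, 6.84, became 6.16 without the deepest cells, 5.90 without cells holding markers of another type, 5.46 thinned and 7.39 in the lower range.

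Signs were opposite in the lower range for all NRF2 targets (−0.68), detoxification (−0.71), efflux and partner genes (−1.32), glutathione S-transferases (−1.34), iron and heme (−0.59) and thioredoxin (−0.11). For these NRF2 lists the choice of cells by their NRF2 share makes the values low by construction. In the lower range signs were also opposite for the 6 markers (−0.95), metallothioneins (−0.39), MHC class I (−0.69), erythroid genes (−0.056) and endoplasmic reticulum stress genes (0.0055). They were opposite for the 6 markers without the deepest cells (−0.11), for barrier lipid genes without cells holding markers of another type (0.0017) and thinned (0.087), for basal genes thinned (0.98) and at 100 UMIs (0.50), for MHC class I without cells holding markers of another type (−0.30) and at 1 UMI (−0.97), and for erythroid genes without the 1 erythroid-rich cell (−0.22).

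Among genes, Bach1 was at −0.45 as a mean over cells. Thinned, Gm26917 was at 1.10, Gm43305 at −0.48, Mir205hg at 0.10 and Ptprs at 1.10. The thinned value of Gm43305 was shared by Itga6, Itgb1, Tmem131 and Zc3h13. Such thinned values rest on few UMIs or on a 0 set to 3 counts, and give no direction. Without the deepest cells, Itgb1 was at 0.44, Lce3f at −0.46 and Malat1 at 0.80. Without cells holding markers of another type, Itgb1 was at 0.67 and Serpinb3a at 0.19. Without the erythroid-rich cell, Hba-a1 was at −0.062, Hba-a2 at −0.38 and Hbb-bs at −0.42. Apart from what these alternatives take out, the cause was not tested.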
